A study of Mus musculus with 12 samples.

Results

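The interleukin-12 (IL-12) family subunits are 5 genes, Il12a, Il12b, Il23a, Il27 and Ebi3, of the 32246 genes in the deposited table. Their rows were found by symbol, and each symbol had 1 row. Their values were read in 12 RNA-seq libraries of mouse macrophages that had been grown from bone marrow for 7 days in GM-CSF at 50 ng/mL. All 3 groups share this culture, and each holds 4 libraries. Untreated cells are labelled as such, with no vehicle named. The PLG+EACA group was treated for 24 h with plasminogen (PLG), the precursor of the clot-dissolving protease plasmin, after exposure of the protein to EACA, a lysine mimic that occupies its lysine-binding sites. For the PLG+EACA+RNase group the protein was exposed to both EACA and RNases before the 24 h treatment, and the study asks what RNA carried by plasminogen does to its immune activity. No group had EACA alone, plasminogen alone or RNases alone, so the effects of plasminogen, of EACA and of anything that came with them cannot be told apart in the comparisons with untreated cells. In the comparison between the treatments, loss of RNA likewise cannot be told apart from other effects of the RNase exposure. The labels give no strain, sex or age, and leave unstated whether libraries within a group are separate animals or cultures, so p-values measure only the spread between these libraries.

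IL-12 family cytokines are secreted pairs of a helical chain and a receptor-like chain. Il12b encodes p40, the receptor-like chain that pairs with p35 (Il12a) to make IL-12 and with p19 (Il23a) to make IL-23. Ebi3 encodes another receptor-like chain, which pairs with p28 (Il27) to make IL-27 and with p35 to make IL-35. Macrophages and dendritic cells are main sources of IL-12, IL-23 and IL-27, which act on T and NK cells: IL-12 favours interferon-gamma production, IL-23 maintains IL-17-producing cells, and IL-27 both promotes early type 1 responses and restrains inflammation. Because each cytokine needs both of its chains, the level of one mRNA does not give the amount of a cytokine, and no protein was measured here.

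The members lie on 5 chromosomes (GRCm38, counted from 1). Il12b spans chr11:44400063-44414033 on the plus strand, Il12a chr3:68690644-68698547 on the plus strand, Il23a chr10:128296139-128298752 on the minus strand, Il27 chr7:126589010-126594941 on the minus strand and Ebi3 chr17:55952640-55957022 on the plus strand. The GENCODE M21 annotation gives them 8, 6, 3, 5 and 5 separate exon stretches in that order, and all are protein-coding. Il27 shares 103 of its 1021 exon bases with Apobr on the opposite strand, and Ebi3 shares 270 of its 1154 with the antisense RNA Gm16712. The library kit keeps strand but the counting setting is not stated, so reads of these overlaps may be shared. Apobr averaged 13.1, 16.0 and 15.9 FPKM and Gm16712 1.505, 2.02 and 2.496 FPKM in untreated, PLG+EACA and PLG+EACA+RNase cells. Il12a, Il12b and Il23a overlapped no other gene.

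The mRNAs of Il12b and Il12a were called higher with both treatments, and that of Ebi3 was called with neither. The promoters of Il12b, Il12a and Ebi3 are shown, as no promoter window was available for Il23a or Il27. Each is the 250 bases before a RefSeq transcript start (build GRCm38.p6), 5′ to 3′ on the gene's strand, with matches to 6 short motifs in capitals. The motifs, searched on both strands, were NF-kB (GGNNNTTCC), the core of the interferon-stimulated response element (GAAANNGAA), AP-1 (TGANTCA), C/EBP (TTGCNNAA), PU.1 (GAGGAA) and the TATA box (TATAAA). Il12b lies at chr11:44399813-44400062, Il12a at chr3:68690394-68690643 and Ebi3 at chr17:55952373-55952622.
Il12b: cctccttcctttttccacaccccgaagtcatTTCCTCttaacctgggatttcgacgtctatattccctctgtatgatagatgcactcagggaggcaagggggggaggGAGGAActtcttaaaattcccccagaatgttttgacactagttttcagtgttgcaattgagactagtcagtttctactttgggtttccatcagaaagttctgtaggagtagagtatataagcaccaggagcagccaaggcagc
Il12a: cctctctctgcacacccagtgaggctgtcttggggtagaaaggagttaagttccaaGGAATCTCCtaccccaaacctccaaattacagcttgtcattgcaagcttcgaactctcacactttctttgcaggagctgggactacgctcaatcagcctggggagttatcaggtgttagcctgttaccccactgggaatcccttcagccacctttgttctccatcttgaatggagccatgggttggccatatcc
Ebi3: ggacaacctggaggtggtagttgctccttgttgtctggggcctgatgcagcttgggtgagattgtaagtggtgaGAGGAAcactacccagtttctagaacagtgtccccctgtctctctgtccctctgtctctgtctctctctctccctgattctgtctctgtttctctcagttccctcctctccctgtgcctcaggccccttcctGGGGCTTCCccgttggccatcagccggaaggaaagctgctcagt

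The Il12b window held 2 PU.1 matches, 1 on the reverse strand at bases 219 to 214 before the start and 1 on the forward strand at bases 143 to 138. The Il12a window held 1 NF-kB match, on the reverse strand at bases 194 to 186 before the start. The window of a second Il12a start, chr3:68691174-68691423, held 0 matches. The Ebi3 window held an NF-kB match at bases 44 to 36 and a PU.1 match at bases 176 to 171, both forward. Of all 32851 promoter windows of this length in the table, 15.7% held an NF-kB match and 23.3% a PU.1 match, so these are common letters. The response element core was in 7.13% of all windows, AP-1 in 6.75%, C/EBP in 9.56% and the TATA box in 12.4%. The matches are a description of letters and no binding was measured.

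Depth ran from 12940880 to 22677050 counted reads per library, worked out from the spacing of low FPKM values. Values are FPKM, fragments per kilobase of gene scaled to the library's total, and are compared between genes only on this per-length scale. Genes with at least 1 FPKM in at least 4 of 12 libraries were tested, 11165 in all, with limma on log2(FPKM + 0.5), and a gene was called at a Benjamini-Hochberg adjusted p under 0.05 over all of them. Untreated libraries serve both treatments as controls, so the 2 comparisons with untreated cells are not independent. All 5 members were tested, but Il23a passed the filter only through the treated groups, a selection that favours a difference from untreated cells in its test. The median log2 difference of all tested genes against untreated cells was -0.26 for PLG+EACA and -0.20 for PLG+EACA+RNase, and it was 0.04 between the treatments. All 9 macrophage markers were at or above 1 FPKM in every library, and so were 5 of 10 dendritic cell markers (Zbtb46, Itgax, Ccr7, Ccl17 and Clec9a). T and NK cell markers summed to at most 0.421 FPKM and B cell markers to at most 0.56 FPKM; mast cell and basophil markers reached 5.20 FPKM and stroma and endothelium markers 22.8 FPKM.

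With PLG+EACA, the mRNAs of the 3 helical chains and of p40 rose and that of Ebi3 was not called. In fold change on the tested scale, Il27 rose most (26.9-fold), followed by Il12b (16.5-fold), Il23a (3.62-fold) and Il12a (2.28-fold). Against this, 14.9% of tested genes were called higher and 53.4% lower, and 64.6% had groups that did not overlap. With PLG+EACA+RNase the same 4 members were called higher, where 16.0% of tested genes were higher, 48.4% lower and 61.7% without overlap. Between the treatments, Il27 and Il12a were lower with PLG+EACA+RNase, where 12.1% of tested genes were higher, 8.73% lower and 18.1% without overlap.

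**Figure D1:**
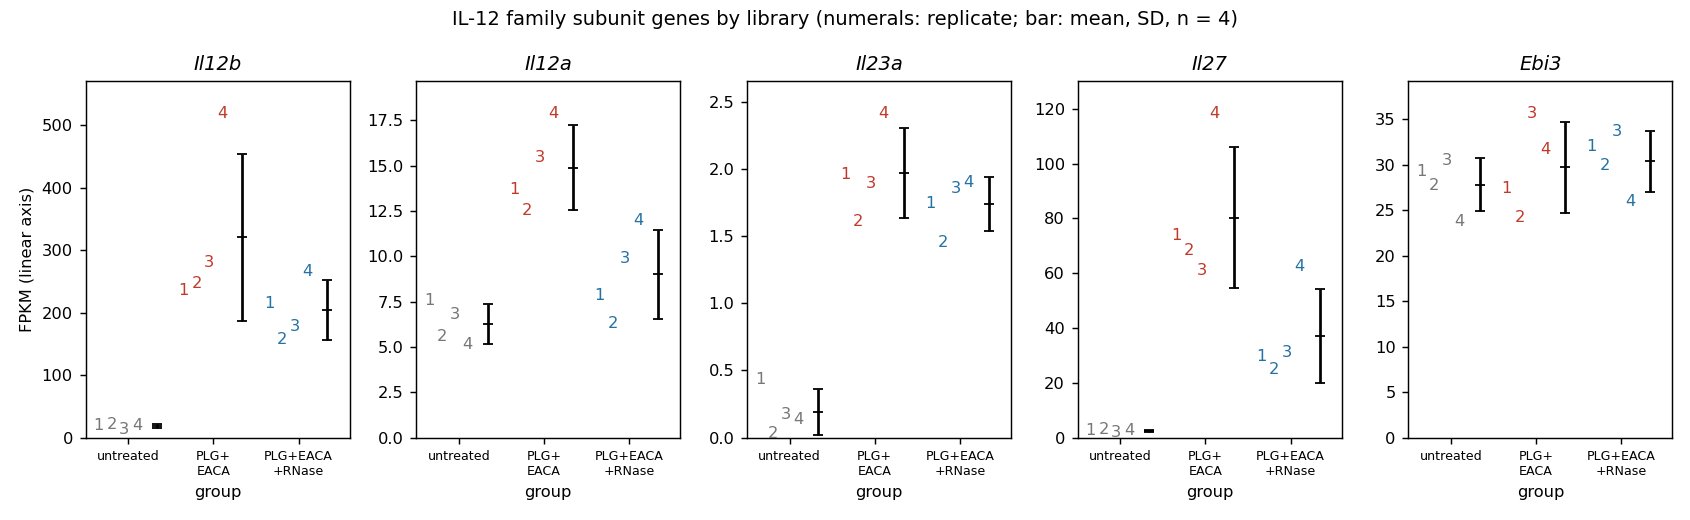
FPKM of the 5 IL-12 family subunit genes on linear axes from 0, by group; numerals are the 4 replicates and bars show the mean and SD (n = 4). Il12b and Il27 lie near the axis in untreated cells and reach 518.5 and 118 FPKM in replicate 4 of PLG+EACA, while the 3 groups of Ebi3 overlap.

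Il12b, the shared p40 chain, stood at 19.4, 20.2, 13.5 and 19.3 FPKM in untreated replicates 1 to 4, from 545 to 829 reads. With PLG+EACA it stood at 236, 246, 281 and 518.5 FPKM, and with PLG+EACA+RNase at 214, 158, 178 and 266 FPKM. Every treated library was far above every untreated one, and replicate 4 was the highest of both treatments. Il12b rose by a log2 of 4.04 ± 0.24 (SE) with PLG+EACA (95% interval 3.52 to 4.57, adjusted p 1.52e-07, limma) and by 3.45 with PLG+EACA+RNase (2.92 to 3.97, adjusted p 4.34e-07, limma). Among all tested genes these were the eighth and the seventh highest log2 differences, and its rank by mean level went from 2313 in untreated cells to 97 and 170. The difference between the treatments was not called: the log2 value with PLG+EACA+RNase minus PLG+EACA was -0.60 (95% interval -1.12 to -0.07, adjusted p 0.0969, limma). It was called without PLG+EACA+RNase replicate 4 (-0.74, adjusted p 0.0463, limma). It was also called without replicate 4 of both treatments (-0.48, adjusted p 0.0451, limma), a setting added after the data were seen. With each library left out in turn the difference ran from -0.74 to -0.34 (adjusted p 0.0463 to 0.229, limma).

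Il12a, the p35 chain of IL-12, stood at 7.55, 5.57, 6.81 and 5.15 FPKM in untreated cells. It stood at 13.7, 12.5, 15.5 and 17.9 FPKM with PLG+EACA and at 7.81, 6.31, 9.90 and 11.98 FPKM with PLG+EACA+RNase. The PLG+EACA libraries lay above all others, while PLG+EACA+RNase overlapped untreated cells in 1 library, replicate 2. Il12a rose by a log2 of 1.19 ± 0.18 (SE) with PLG+EACA (95% interval 0.80 to 1.58, adjusted p 0.000103, limma). With PLG+EACA+RNase it was higher than in untreated cells by 0.47 (95% interval 0.07 to 0.86, adjusted p 0.0375, limma), a call lost without any 1 of 4 libraries: untreated 2 or 4 or PLG+EACA+RNase 3 or 4 (log2 0.32 to 0.42, adjusted p 0.0894 to 0.112). It was also lost without the filter (adjusted p 0.0893) and with only the 2 groups in the fit (adjusted p 0.053). It was lower with PLG+EACA+RNase than with PLG+EACA by a log2 of -0.72 (95% interval -1.11 to -0.33, adjusted p 0.0187, limma), without overlap. That call was lost without PLG+EACA replicate 4 (-0.63, adjusted p 0.0508) or PLG+EACA+RNase replicate 2 (-0.57, adjusted p 0.0518), and with only the 2 groups in the fit (adjusted p 0.0522).

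Il23a, the p19 chain of IL-23, was the least abundant member in every group. Untreated libraries held 21, 1, 8 and 5 reads of it, or 0.43, 0.03, 0.174 and 0.132 FPKM. With PLG+EACA it stood at 1.96, 1.61, 1.89 and 2.41 FPKM (76 to 95 reads), and with PLG+EACA+RNase at 1.75, 1.45, 1.86 and 1.90 FPKM (54 to 81 reads). Every treated library was above every untreated one and the treatments overlapped. The ratio of group means was 10.3 and 9.08 against untreated cells. On the tested scale, where the pseudocount of 0.5 exceeds its untreated level, Il23a rose by a log2 of 1.86 (adjusted p 1.79e-06, limma) and 1.72 (adjusted p 3.57e-06, limma). With a pseudocount of 0.1 these were 2.99 and 2.83, and with voom on the recovered reads 3.56 and 3.41, so its size of change rests on the scale. Between the treatments the log2 difference was -0.14 (95% interval -0.49 to 0.22, adjusted p 0.583, limma).

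Il27, the p28 chain of IL-27, stood at 2.43, 2.92, 1.72 and 2.68 FPKM in untreated cells. It stood at 73.9, 68.2, 60.9 and 118 FPKM with PLG+EACA and at 29.6, 25.0, 30.9 and 62.4 FPKM with PLG+EACA+RNase. All treated libraries were above all untreated ones, and replicate 4 was again the highest of each treatment. Il27 had the highest log2 difference of all tested genes with PLG+EACA, 4.75 ± 0.27 (SE; 95% interval 4.16 to 5.34, adjusted p 1.25e-07, limma), and the fourth highest with PLG+EACA+RNase, 3.60 (3.002 to 4.19, adjusted p 7.54e-07, limma). It was 2.23-fold lower with PLG+EACA+RNase than with PLG+EACA (log2 -1.15, 95% interval -1.75 to -0.56, adjusted p 0.0155, limma). These groups met in 1 library, PLG+EACA+RNase replicate 4 (62.4 FPKM), which lay above PLG+EACA replicate 3 (60.9 FPKM). Without replicate 4 of both treatments, a setting added after the data were seen, the difference was -1.23 (adjusted p 0.000564, limma). With each library left out in turn it ran from -1.44 to -0.95 (adjusted p 0.00108 to 0.0496, limma). With only the 2 groups in the fit the adjusted p was 0.0522.

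Ebi3, the receptor-like chain of IL-27, was already abundant in untreated cells, at 29.2, 27.7, 30.4 and 23.7 FPKM. It stood at 27.4, 24.1, 35.6 and 31.6 FPKM with PLG+EACA and at 32.0, 29.9, 33.6 and 25.9 FPKM with PLG+EACA+RNase. The 3 groups overlapped, and replicate 4 was the lowest library in untreated and PLG+EACA+RNase cells. The log2 difference from untreated cells was 0.09 (95% interval -0.18 to 0.35, adjusted p 0.542, limma) with PLG+EACA and 0.12 (-0.14 to 0.39, adjusted p 0.38, limma) with PLG+EACA+RNase. After median-of-ratios scaling, which equalises the median gene's ratio between libraries, Ebi3 was called higher with both, by 0.36 (adjusted p 0.0231) and 0.35 (adjusted p 0.0246). Between the treatments it was 0.04 (95% interval -0.22 to 0.30).

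**Figure D2:**
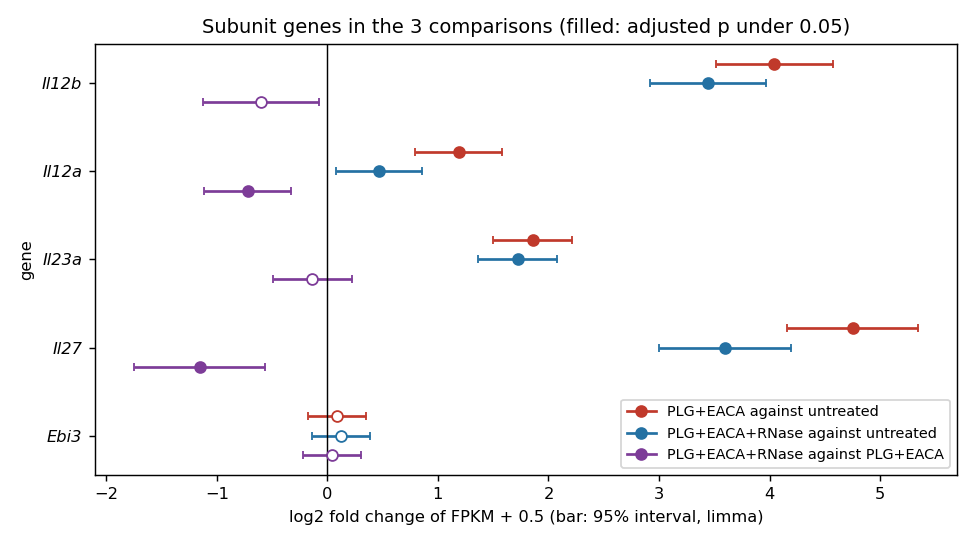
Log2 differences of the 5 members in the 3 comparisons, with 95% intervals from limma on log2(FPKM + 0.5). Il27 (4.75) and Il12b (4.04) lie furthest from 0 with PLG+EACA, and the Ebi3 intervals include 0 in all 3 comparisons.

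The order of the members by mean level changed with treatment. In untreated cells Ebi3 (27.8 ± 2.91 FPKM, SD, n = 4) was followed by Il12b (18.1 ± 3.07), Il12a (6.27 ± 1.11), Il27 (2.44 ± 0.516) and Il23a (0.192 ± 0.170), and no neighbours in that order overlapped. With PLG+EACA the order was Il12b (320.1 ± 134), Il27 (80.3 ± 25.9), Ebi3 (29.7 ± 4.99), Il12a (14.9 ± 2.33) and Il23a (1.97 ± 0.333), again without overlap. With PLG+EACA+RNase it was Il12b (203.9 ± 47.7), Il27 (37.0 ± 17.2), Ebi3 (30.3 ± 3.34), Il12a (9.001 ± 2.47) and Il23a (1.74 ± 0.202), with Il27 and Ebi3 overlapping.

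Ratios of partner chains within a library describe which chain was in excess as mRNA, and were not tested because they are built from the values above. Il12b was 1.99 to 3.75 times Il12a in untreated cells, 17.2 to 29.0 times with PLG+EACA and 18.0 to 27.4 times with PLG+EACA+RNase. Il12b exceeded Il23a by at least 45.1 times in every library. Its ratio to Il23a reached 673 in untreated replicate 2, where Il23a had 1 read. The ratio of Il27 to Ebi3 ran from 0.0566 to 0.113 in untreated cells and from 1.71 to 3.74 with PLG+EACA, so the more abundant chain of the pair changed from Ebi3 to Il27. With PLG+EACA+RNase the ratio was 0.927, 0.835 and 0.919 in replicates 1 to 3 and 2.41 in replicate 4, so that group has libraries on both sides of 1.

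**Figure D3:**
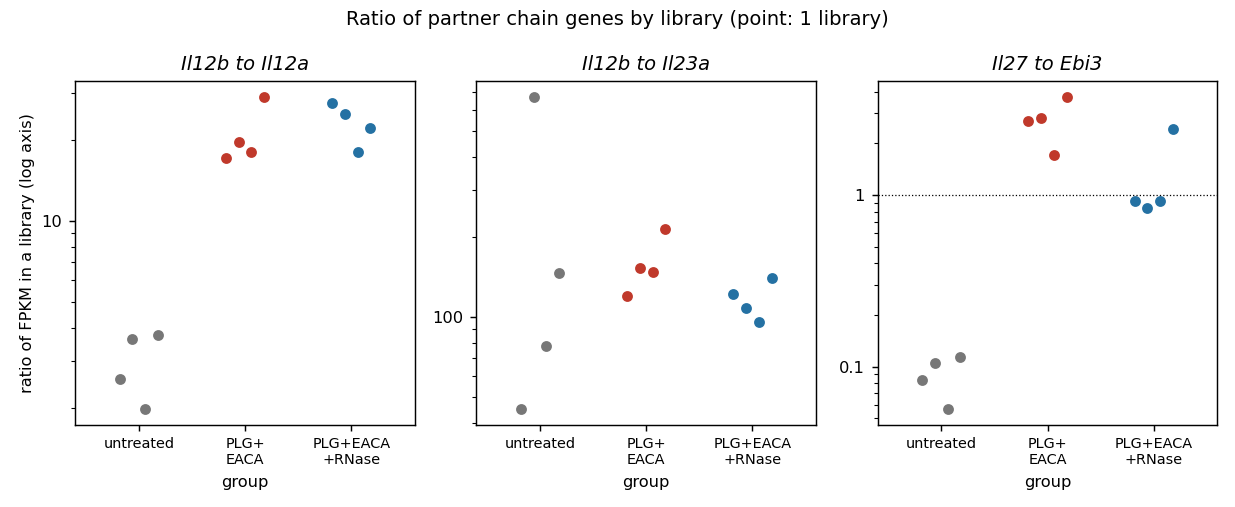
Ratio of FPKM of partner chain genes in each library, on log axes; each point is 1 library and the dotted line marks a ratio of 1. Il27 is below Ebi3 in all untreated libraries (0.0566 to 0.113) and above it in all PLG+EACA libraries (1.71 to 3.74).

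Across the 12 libraries, Pearson's r of log2 values, given as a description over libraries of 3 groups, was 0.99 for Il12b and Il27, 0.97 for Il12b and Il23a, and 0.81 for Il12a and Il12b. After each group's mean was subtracted, r was 0.85 for Il12b and Il27, 0.41 for Il12b and Il23a, and 0.52 for Il12a and Il12b. For both Il12b and Il27, replicate 4 was the highest library of each treatment, and r without these libraries was not computed. Ebi3 had r of 0.19 with Il27 over the 12 libraries and -0.36 after subtraction. The protein-coding genes most like Il27 over the 12 libraries were Ifih1 (r 0.998), Cmpk2 (0.998) and Trim30c (0.997), and after subtraction Alpk1 (0.977), Ifit2 (0.973) and Ifih1 (0.969). Ifih1 is a sensor of double-stranded RNA and Ifit2 an interferon-induced gene. Those most like Il12b were Clic4 (0.996), Sp140 (0.995) and Ptgs2 (0.994), the last being the inducible cyclooxygenase, and after subtraction Mrpl22 (0.944), Vps54 (0.941) and Cnnm4 (0.925). For Il23a they were Mmp13 (0.988), Acod1 (0.986) and Slc7a2 (0.984), and after subtraction Mmp13 (0.914), Slc35a1 (0.869) and Tmbim4 (0.844). For Il12a they were Mier3 (0.98), Kdr (0.974) and C5ar1 (0.969), and after subtraction Lipe (0.965), Cd48 (0.938) and Rin3 (0.93). For Ebi3 they were Polb (0.886), Ly96 (0.827) and Rpl27 (0.827), and after subtraction Slc50a1 (0.928), Arap2 (0.926) and Atp6ap1 (0.925). Likeness after subtraction leaves out differences between groups. Lipe, Cd48 and Rin3 had lower means with both treatments than in untreated cells, opposite to Il12a. So did Mrpl22 and Cnnm4, opposite to Il12b, and Slc35a1 and Tmbim4, opposite to Il23a. Vps54 and Mmp13 had higher means with both treatments, as Il12b and Il23a had.

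The receptor genes of these cytokines moved both ways. With PLG+EACA 3 of 5 rose and 1 fell, and with PLG+EACA+RNase 2 rose and 2 fell, with list medians of 0.62 and 0.37 in log2. After median-of-ratios scaling the counts were 3 higher and 1 lower with each treatment. Of the 11165 tested genes, that scaling gave 3050 higher and 2942 lower with PLG+EACA, and 3169 and 2953 with PLG+EACA+RNase. Before that scaling, 14.9% of all tested genes were called higher and 53.4% lower with PLG+EACA. With PLG+EACA+RNase the shares were 16.0% and 48.4%. Il12rb1, the chain shared by the IL-12 and IL-23 receptors, went from 3.24 ± 0.311 FPKM (SD, n = 4) in untreated cells to 7.09 ± 0.4998 with PLG+EACA, against 7.90 ± 0.716 with PLG+EACA+RNase, with log2 rises of 1.02 and 1.17. Il12rb2, the second IL-12 receptor chain, rose by 0.62 and 0.37, the latter a call lost without any 1 of 5 libraries, untreated 2, 3 or 4 or PLG+EACA+RNase 1 or 4 (adjusted p 0.0613 to 0.0876), and without the filter (adjusted p 0.0808). Il12rb2 shares 1519 of its 3794 exon bases with Serbp1 on the other strand. Il23r rose by 0.71 with PLG+EACA (adjusted p 0.00567, limma) from 0.533 FPKM; like Il23a it passed the filter only through treated libraries, which favours a difference in this test and in the count of 3. It stood 0.45 above untreated cells with PLG+EACA+RNase without a call (adjusted p 0.0559, limma). Il6st, the gp130 chain used by IL-27 and IL-6, fell by 1.17 and 1.22 on the log2 scale, from 28.3 ± 0.893 to 12.3 ± 1.25 and 11.9 ± 0.726 FPKM. Il27ra, its IL-27 partner, fell by 0.42 with PLG+EACA+RNase (adjusted p 0.0117), a call lost with median-of-ratios scaling (adjusted p 0.131). None of the 5 was called between the treatments, where 12.1% of all tested genes were higher and 8.73% lower.

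Of 6 genes for the receptor kinases and STATs, 2 rose and 1 fell with PLG+EACA and 2 rose and 2 fell with PLG+EACA+RNase, with list medians of 0.09 and 0.12. After median-of-ratios scaling, 5 and 3 of the 6 were called higher and 0 lower. Of the 11165 tested genes, that scaling gave 3050 higher and 2942 lower with PLG+EACA, and 3169 and 2953 with PLG+EACA+RNase. The unscaled shares of all tested genes were 14.9% higher and 53.4% lower, and 16.0% and 48.4%. Stat3 rose by 0.50 and 0.30, the latter lost without untreated replicate 4 or PLG+EACA+RNase replicate 3 or 4 (adjusted p 0.0655 to 0.0833) and without the filter (adjusted p 0.0669). Jak1, the 1 gene counted as lower with PLG+EACA, had a log2 difference of -0.16 that became 0.12 with median-of-ratios scaling. With PLG+EACA+RNase its -0.25, also counted as lower, became -0.02 (adjusted p 0.676, limma). The counts therefore give Jak1 no firm direction. Jak2 fell by 0.44 and Tyk2 by 0.19 with PLG+EACA+RNase against PLG+EACA, and the Tyk2 call was lost under 12 of the alternatives. Stat4, which carries the IL-12 signal in T cells, was near the filter at 1.53, 1.55 and 2.06 FPKM.

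The related ligands of the IL-6 and IL-12 superfamily held 8 genes, of which 5 passed the filter. All 5 rose with both treatments, with list medians of 1.60 and 1.57 in log2. Against untreated cells, PLG+EACA had 14.9% of all tested genes called higher and 53.4% lower. For PLG+EACA+RNase these shares were 16.0% and 48.4%. Il6, which signals through gp130, went from 17.4 ± 2.91 FPKM to 163.5 ± 41.7 with PLG+EACA, against 82.6 ± 29.1 with PLG+EACA+RNase. The log2 difference of PLG+EACA+RNase minus PLG+EACA was -1.02 (adjusted p 0.015). Lif rose by 2.06 and 1.57, Osm by 1.60 and 1.13, Csf3, the granulocyte growth factor, by 1.14 and 1.92, and Clcf1 by 1.07 and 0.97. Of 7 cytokines of the responding lymphocytes, 5 were in the table and none reached the filter: Ifng, Il2 and Il17f had at most 3 reads in a library, Il22 at most 9 and Il4 at most 14.

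Of 24 factors known to act at the subunit genes, 11 rose and 9 fell with PLG+EACA, and 7 rose and 9 fell with PLG+EACA+RNase, with list medians of 0.08 and -0.01. After median-of-ratios scaling the counts were 13 higher and 6 lower, and 12 higher and 7 lower. Of the 11165 tested genes, that scaling gave 3050 higher and 2942 lower with PLG+EACA, and 3169 and 2953 with PLG+EACA+RNase. Before that scaling, 14.9% of all tested genes were called higher and 53.4% lower with PLG+EACA. With PLG+EACA+RNase the shares were 16.0% and 48.4%. Irf1, an interferon-induced factor, went from 24.7 ± 2.22 FPKM to 94.3 ± 8.17 and 72.9 ± 6.08, with log2 rises of 1.91 and 1.54, and was lower by -0.37 with PLG+EACA+RNase than with PLG+EACA (adjusted p 0.0121). Chosen after its values were seen, Irf7, the interferon-amplifying factor with the highest log2 difference of the 24, went from 10.8 ± 2.37 FPKM to 98.2 ± 29.1 and 50.1 ± 24.1. Nfkb2 rose by 0.76 and 0.55, and Junb was 138.6, 244.8 and 253.5 FPKM in untreated, PLG+EACA and PLG+EACA+RNase cells. Batf3, a factor of conventional dendritic cells, fell by 1.31 and 1.23, from 37.1 to 14.7 and 15.6 FPKM, and Runx1 fell by 0.68 and 0.72. Between the treatments 1 of the 24 was higher and 9 were lower with PLG+EACA+RNase, where 12.1% of all tested genes were higher and 8.73% lower. Nfkbiz was lower by -0.32 (adjusted p 0.00897, limma) and Rela by -0.26 (adjusted p 0.0129, limma). With only the 2 groups in the fit, the calls between the treatments were lost for Jak2, Il6, Nfkb2 and Rela (adjusted p 0.0505 to 0.0747). Irf1, Nfkb2, Junb, Runx1, Stat3, Tyk2, Jak1, Il27ra, Dusp1 and Zfp36 share exon bases with another gene on the opposite strand, and Clcf1 with one on the same strand.

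Of 14 genes that restrain the subunit genes and mRNAs, 7 rose and 2 fell with PLG+EACA, and 6 rose and 4 fell with PLG+EACA+RNase, with list medians of 0.20 and 0.04. The shares of all tested genes were 14.9% higher and 53.4% lower, and 16.0% and 48.4%. Il10, which restrains Il12b in macrophages, was 0.121, 1.96 and 2.12 FPKM and passed the filter only through the treated groups. Tnfaip3 (A20, an inhibitor of NF-kB signalling) rose by 1.26 and 1.14, and Zfp36, which destabilises cytokine mRNAs, by 0.78 and 0.71. Dusp1, a phosphatase of MAP kinases, rose by 0.62 and 1.01 and was higher with PLG+EACA+RNase than with PLG+EACA by 0.39 (adjusted p 0.00271). Socs1 and Socs3, with log2 differences of -0.08 and -0.07 with PLG+EACA, were -0.68 (adjusted p 0.0122) and -0.56 (adjusted p 0.0154) from untreated cells with PLG+EACA+RNase. After median-of-ratios scaling, 0 of the 14 were called lower against untreated cells with either treatment, and 8 and 7 were called higher. Of the 11165 tested genes, that scaling gave 3050 higher and 2942 lower with PLG+EACA, and 3169 and 2953 with PLG+EACA+RNase.

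**Figure D4:**
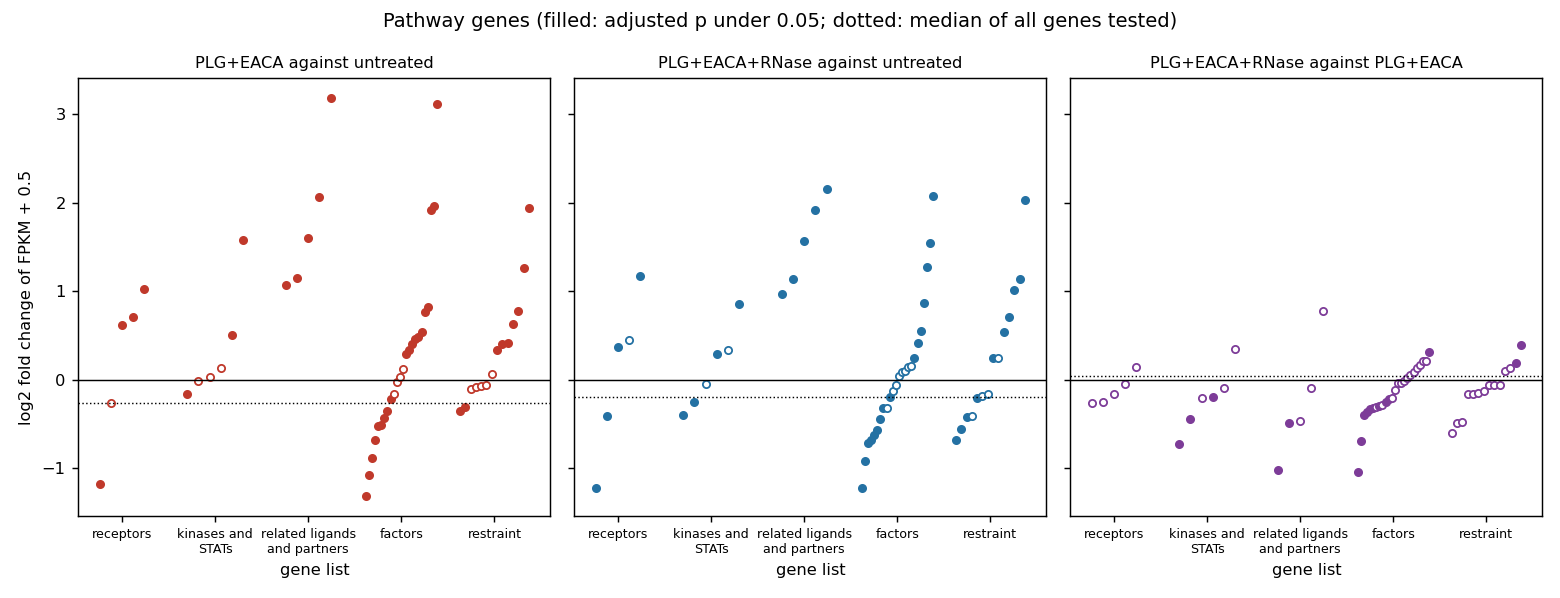
Log2 differences, from limma on log2(FPKM + 0.5), of all tested members of the receptor, signalling, ligand, factor and restraint lists in the 3 comparisons; each point is 1 gene, filled where called, and the dotted line is the median of all tested genes. Il6 (3.18 with PLG+EACA) lies furthest to the higher side and Batf3 (-1.31) to the lower side.

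Markers of other cells moved beside these results, and their part in them was not tested. The 10 dendritic cell markers summed to 2796 to 2957 FPKM in untreated cells, 2006 to 2791 with PLG+EACA and 2281 to 2752 with PLG+EACA+RNase, most of it Ccl17. Of 6 tested, 1 was called higher and 3 lower with PLG+EACA, and 2 higher and 2 lower with PLG+EACA+RNase. Beside these and the marker counts below, 14.9% of all tested genes were called higher and 53.4% lower with PLG+EACA. With PLG+EACA+RNase those shares were 16.0% and 48.4%. Zbtb46 was higher with both (log2 0.37 and 0.61), and Ccr7 with PLG+EACA+RNase (0.64). Clec9a (-1.02 and -0.69) and Itgax (-0.395 and -0.32) were lower with both, and Ccl17 (-0.28) with PLG+EACA. The 8 neutrophil markers summed to 300.3 to 383.2 FPKM in untreated cells, 130.5 to 168.7 with PLG+EACA and at most 149.3 with PLG+EACA+RNase, most of it Mmp8, and Ly6g was 0 in all untreated libraries. Mmp8 was the 1 neutrophil marker of 5 tested that was called lower with either treatment. Ltf was called higher with PLG+EACA+RNase (adjusted p 0.0133, limma), at 1.12, 1.83 and 3.03 FPKM in the 3 groups, and Mpo, too low to test, was at 0.0128, 0.147 and 0.853 FPKM. The 9 macrophage markers summed to 5327 to 5934, 4156 to 6089 and 4082 to 4643 FPKM, most of it Lyz2. Of these 9, 3 were called higher and 4 lower with PLG+EACA, and 1 higher and 4 lower with PLG+EACA+RNase. In bulk RNA, fewer cells of a type and less RNA per cell cannot be told apart.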

How the data were processed

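Total RNA of 12 libraries was measured, 4 in each of 3 groups taken from the labels. Per the labels' protocols a directional kit was used; the build GRCm38.p6 and the tools STAR 2.7.11a, featureCounts 2.0.6, cutadapt 4.5, DESeq2 1.40.2 and FastQC 0.12.1 are from the submitters' processing notes, which give no roles. The authors deposited FPKM per gene and library, with 3 decimals. From these, whole reads were recovered (98.4% to 99.8% of values within 0.1 read), giving the depth; precision at few reads is counting-limited.

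Group means over all 12 libraries were fitted with limma 3.58.1 in R 4.3.3 (eBayes with trend, two-sided) on log2(FPKM + 0.5); the steps were tested on simulated data. Fold changes are on that scale and understate those of low genes. The 5 members and, per gene list, up to 4 tested members with the smallest p in each comparison are named, and the 3 protein-coding genes most like each member. Members and lists were chosen with earlier results of these data known. Alternatives were pseudocounts of 0.1 and 1, no filter, median-of-ratios scaling, voom on recovered reads, a replicate block, only the 2 groups compared, and each library left out. Leaving out replicate 4 of both treatments was added after seeing the data. Results for 2 list genes are not reported here.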

Additional observations from a re-analysis of the deposited data

Results flagged for a closer look

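In groups of 4 libraries, 3 values stood further from the rest than Dixon's 95% limit allows, which chance does for about 1 in 20 groups. Il12b was lowest in untreated replicate 3, at 13.539 FPKM, and highest in PLG+EACA replicate 4, at 518.5 FPKM. Il27 was highest in PLG+EACA+RNase replicate 4, at 62.439 FPKM.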

How the results depend on the processing

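The rises of Il12b, Il23a and Il27 against untreated cells, and of Il12a with PLG+EACA, kept direction and call under all alternatives run. Leaving out 1 library gave log2 ranges with PLG+EACA of 3.79 to 4.17 (Il12b), 1.74 to 2.01 (Il23a), 4.55 to 4.87 (Il27) and 1.099 to 1.28 (Il12a); with PLG+EACA+RNase they were 3.31 to 3.56, 1.60 to 1.87 and 3.31 to 3.75 for the first 3. With median-of-ratios scaling, 3050 genes were higher and 2942 lower with PLG+EACA (1661 and 5963 as reported), and 3169 and 2953 with PLG+EACA+RNase (1783 and 5408). Ebi3 was then at 0.36 and 0.35 against untreated cells, and at -0.005 between the treatments. It turned Jak1 with PLG+EACA to 0.12.

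Without a filter, 3306 genes were higher with PLG+EACA+RNase and 636 lower between the treatments (975 as reported), and Il12a with PLG+EACA+RNase was 0.47 (adjusted p 0.0893). With only the 2 groups compared, Il12a was 0.47 (adjusted p 0.053); between the treatments 735 genes were called (425 higher, 310 lower) against 2324, and Il12a (-0.72) and Il27 (-1.15) both had an adjusted p of 0.0522. Without replicate 4 of both treatments, Il12a was 0.32 with PLG+EACA+RNase (adjusted p 0.0931) and Il12b -0.48 between the treatments (adjusted p 0.0451).

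Leaving out 1 library gave 992 to 3228 calls between the treatments (569 to 1922 higher, 423 to 1306 lower), the lowest without PLG+EACA+RNase replicate 3. It gave Il12a 0.32 to 0.61 with PLG+EACA+RNase and, between the treatments, Il12a -0.87 to -0.57, Il12b -0.74 to -0.34, Il27 -1.44 to -0.95 and Ebi3 -0.054 to 0.13. Ebi3 with PLG+EACA ran from -0.005 to 0.18. Without PLG+EACA+RNase replicate 4 the mean log2 ratio of Il27 to Ebi3 in that group was -0.16 against 0.19, in a range of -0.16 to 0.34 over the libraries left out.

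Same-numbered libraries did not deviate together throughout (r from -0.18 to 0.33), so the numbers were not taken as pairs. With a replicate block, Il12b between the treatments was -0.60 (adjusted p 0.0425). Few reads limit Il23a in untreated cells.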
